A study of Mus musculus with 6 samples.

Results

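The genes of the proteasome were examined in intestinal stem cells with and without overexpression of circEZH2_005, a circular RNA made from the Ezh2 gene. Every protein-coding row of the deposited gene table whose symbol starts with Psma to Psmg and a digit was taken, which gave 49 of the 28752 genes listed. 2 further rows with such symbols, both pseudogenes, were left out. The 5 genes that interferon-gamma is known to induce, Psmb8, Psmb9, Psmb10, Psme1 and Psme2, were set against the 31 subunits of the constitutive 20S core and 19S cap. The other 13 genes encode further activators, an inhibitor and assembly chaperones, plus Psma8, a core subunit best known from testis, and Psmc3ip, a recombination factor that matches by symbol only.

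RNA-seq was done on mouse Lgr5-positive intestinal stem cells, taken from mice of the Lgr5-GFP reporter strain and cultured as organoids, in 3 samples per group. Control samples are labelled vector with the genotype WT, and the others circEZH2_005 overexpression, made with an adenovirus. The labels give all samples the same text on infection for 72 h, which names only the circEZH2_005 adenovirus, and do not say which virus the vector samples received. Libraries were made from RNA caught on oligo(dT) beads. Both groups went through hypoxia and reoxygenation, with hypoxia for 4 h at 2% O2 per the labels, so no sample shows the cells without that stress. The age of the mice and whether the 3 samples of a group came from separate mice or cultures are not given in the labels, so p-values measure only the spread between these samples. The gene table has no row matched to the circular RNA itself, and its overexpression was not checked here.

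The 26S proteasome is the protease that degrades proteins tagged with ubiquitin. Its 20S core is a barrel of alpha and beta rings, in which Psmb5, Psmb6 and Psmb7 carry the chymotrypsin-like, caspase-like and trypsin-like activities, and its 19S cap binds the ubiquitin chain, unfolds the substrate with a ring of ATPases and feeds it into the barrel. Under interferon-gamma, and constantly in many leukocytes, newly made cores take up Psmb8, Psmb9 and Psmb10 in place of Psmb5, Psmb6 and Psmb7, which makes the immunoproteasome. Psme1 and Psme2 form the 11S (PA28 alpha-beta) cap that opens the barrel, and peptides made this way are loaded on MHC class I.

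The samples held 71506487 to 79919893 counts, and levels are given as CPM, a gene's counts relative to the TMM-scaled library size. 3 counts correspond to 0.0377 to 0.0419 CPM. All 6 epithelial markers (Epcam, Cdh1, Krt8, Krt18, Krt19, Vil1) and all 6 crypt stem cell markers were detected in every sample, summing to 7139 to 7575 CPM in vector and 8647 to 10806 CPM in circEZH2_005 cells for the first list, and to 2009 to 2848 CPM and 1355 to 1984 CPM for the second. Most of the second sum was Olfm4, at 1447, 2314 and 1511 CPM in vector and 1383, 1003 and 1565 CPM in circEZH2_005 samples. Lgr5 was at 16.1, 12.1 and 18.3 CPM in vector and 8.55, 9.10 and 7.70 CPM in circEZH2_005 samples. At an adjusted p under 0.05 by edgeR, 2.69% of all genes tested were higher and 0.986% lower. By edgeR 1 of the 6 epithelial markers rose, Krt8 (1.49-fold, adjusted p = 0.0301). Of the 6 stem cell markers 2 fell by the same test. Lgr5 fell to 0.55-fold of vector (adjusted p = 0.0434, and past the threshold in 4 of 13 alternatives) and Smoc2 to 0.57-fold (adjusted p = 0.0203, in 10 of 14). Slc12a2 was at 0.67-fold (adjusted p = 0.0509, in 7 of 14), Ascl2 at 0.62-fold (adjusted p = 0.0921) and Olfm4 at 0.75-fold (adjusted p = 0.314). Axin2 was at 1.24-fold (adjusted p = 0.219). Without overlap between the groups 4 of the 6 were lower, against 14.2% over all genes tested. Vector sample 2 stood apart from the other 2 vector samples: its log2 profile correlated with each of them at 0.970 and with the circEZH2_005 samples at 0.965 to 0.971. Results that rest on it are given with and without it.

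The stretches around the start sites of 4 of the inducible genes and of the constitutive partners Psmb5 and Psmb6 are shown because the results turn on the contrast between these genes. They run from 250 bases before to 50 bases after the RefSeq start (GRCm38.p6), 5′ to 3′. Capitals mark a match to the gamma-activated site TTCNNNGAA in Psmb8, to the core of the interferon-stimulated response element in Psme1 (GAAA and GAAA with any 2 bases between them, here on the other strand, so that it reads TTTCGCTTTC), and to the core of the antioxidant response element TGACNNNGC in Psmb5 and Psmb6.
Psmb8, chr17:34197945-34198244, plus strand: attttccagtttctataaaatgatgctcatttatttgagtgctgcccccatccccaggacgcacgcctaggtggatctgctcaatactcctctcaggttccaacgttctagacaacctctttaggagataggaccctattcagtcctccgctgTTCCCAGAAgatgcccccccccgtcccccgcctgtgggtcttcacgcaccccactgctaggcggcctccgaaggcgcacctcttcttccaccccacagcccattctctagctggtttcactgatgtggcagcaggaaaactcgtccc
Psmb9, chr17:34187281-34187580, minus strand: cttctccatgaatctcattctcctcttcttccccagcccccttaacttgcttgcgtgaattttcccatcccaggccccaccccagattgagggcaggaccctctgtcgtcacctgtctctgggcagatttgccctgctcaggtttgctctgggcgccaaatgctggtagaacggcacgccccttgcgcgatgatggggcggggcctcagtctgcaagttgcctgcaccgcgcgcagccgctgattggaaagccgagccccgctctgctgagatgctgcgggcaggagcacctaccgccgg
Psme1, chr14:55578244-55578543, plus strand: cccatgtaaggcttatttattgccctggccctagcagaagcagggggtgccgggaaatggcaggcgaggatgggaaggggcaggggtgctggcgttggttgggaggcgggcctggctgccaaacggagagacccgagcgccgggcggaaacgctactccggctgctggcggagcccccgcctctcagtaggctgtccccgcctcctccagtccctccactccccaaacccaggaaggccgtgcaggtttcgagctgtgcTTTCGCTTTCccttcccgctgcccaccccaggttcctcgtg
Psme2, chr14:55591052-55591351, minus strand: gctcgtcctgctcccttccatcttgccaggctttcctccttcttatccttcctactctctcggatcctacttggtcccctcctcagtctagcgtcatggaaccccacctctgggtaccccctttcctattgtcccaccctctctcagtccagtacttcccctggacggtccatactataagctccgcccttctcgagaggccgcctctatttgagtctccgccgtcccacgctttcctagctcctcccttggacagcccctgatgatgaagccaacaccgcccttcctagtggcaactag
Psmb5, chr14:54617946-54618245, minus strand: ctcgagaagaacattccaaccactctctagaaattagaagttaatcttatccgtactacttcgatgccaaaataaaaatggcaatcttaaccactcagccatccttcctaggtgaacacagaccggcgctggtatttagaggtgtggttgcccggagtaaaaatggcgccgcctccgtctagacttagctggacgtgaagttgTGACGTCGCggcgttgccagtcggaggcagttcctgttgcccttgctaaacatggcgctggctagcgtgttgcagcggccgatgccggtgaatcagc
Psmb6, chr11:70525107-70525406, plus strand: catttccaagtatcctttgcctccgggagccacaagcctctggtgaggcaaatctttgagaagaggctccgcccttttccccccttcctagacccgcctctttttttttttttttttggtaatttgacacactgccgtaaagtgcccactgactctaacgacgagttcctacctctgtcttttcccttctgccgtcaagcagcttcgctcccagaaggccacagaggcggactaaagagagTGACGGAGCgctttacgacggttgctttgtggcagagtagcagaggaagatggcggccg
The gamma-activated site is known from promoters that answer to interferon-gamma, the interferon-stimulated response element is bound by IRF factors, and the antioxidant response element is bound by cap'n'collar factors such as Nfe2l1, which is known to control constitutive proteasome genes. Both strands were searched in the windows of 41 proteasome genes, which included all 5 inducible genes and 25 of the 31 constitutive ones. The interferon-stimulated core was in 1 of the 5 (Psme1) and in 2 of the 25 (Psmb3, Psmd4), against 3.44% of all 32851 RefSeq promoters. The gamma-activated site was in 1 of the 5 (Psmb8) and 1 of the 25 (Psmd2), against 8.30% of all promoters, and the antioxidant core in 0 of the 5 and 4 of the 25 (Psmb5, Psmb6, Psmc6, Psmd12), against 12.4%. The motifs were picked after the expression values had been seen, and a match only says that the letters are present in the window. RefSeq starts lay 12 to 474 bases from the gene start in the deposited table for the 4 inducible genes shown and 10 and 27 bases for Psmb6 and Psmb5. For Psmb8, Psmb9 and Psme1 the whole window lay inside the gene as given in that table, so bases before the table's start were not searched. The RefSeq start of Psmb10 lay 288 bases outside its gene in the table, so its window is not printed, though it is counted among the 5. A gene counted if any of its windows held a match, while the percentages are over promoters.

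All 5 inducible subunits were higher in every circEZH2_005 sample than in any vector sample, by 1.35- to 1.53-fold, and 2 of them, Psme1 and Psmb10, passed the adjusted threshold of 0.05. Across all 18348 genes tested, 2.69% were higher by that rule and 16.4% were higher without overlap between the groups. The median log2 fold change of the 5 was 0.57, a 1.49-fold median, against a median of 0 to 2 decimals over all genes tested.

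Psme1 (chr14:55578123-55581528, plus strand), the alpha subunit of the 11S cap, stood at 182, 221 and 170.4 CPM in the vector samples and at 284, 289.9 and 306 CPM in the circEZH2_005 samples. It rose by 0.62 ± 0.11 on the log2 scale (standard error), the largest change among the tested proteasome genes (edgeR, adjusted p = 0.0349). Its partner Psme2 (chr14:55587441-55591113, minus strand), the beta subunit, lies 5912 bases away and read 244, 276 and 213 CPM in vector and 314, 342 and 336 CPM in circEZH2_005 cells. The difference in Psme2 was 0.44 ± 0.11 with an adjusted p of 0.0677. The groups did not overlap for either subunit, and the gap for Psme2 between the highest vector and the lowest circEZH2_005 sample was narrower than for Psme1.

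Psmb10 (chr8:105935735-105938104, minus strand), which replaces the trypsin-like Psmb7, was at 145, 169.9 and 133 CPM in vector and 213, 230.2 and 222 CPM in circEZH2_005 cells. It rose by 0.57 ± 0.11 (adjusted p = 0.0372). Psmb8 (chr17:34197721-34201454, plus strand), which replaces the chymotrypsin-like Psmb5, was at 224, 272 and 199 CPM in vector and 324, 369 and 347 CPM in circEZH2_005 cells, a difference of 0.58 ± 0.13 with an adjusted p of 0.0516. The difference was close in size to that of Psmb10, but the vector samples were spread wider, with an SD of 37.4 CPM against 18.8 CPM. Psmb9 (chr17:34181987-34187764, minus strand), which replaces the caspase-like Psmb6, was at 173, 241 and 156 CPM in vector and 252, 271 and 276 CPM in circEZH2_005 cells, a difference of 0.49 ± 0.16 with an adjusted p of 0.119. Vector sample 2 was the highest vector sample for each of the 5 genes, as it was for 29 of the 31 constitutive subunits. For Psmb9 it came closest to the circEZH2_005 samples. With vector sample 2 left out all 5 passed, and the difference in Psmb9 became 0.69. With vector sample 1, vector sample 3, circEZH2_005 sample 2 or circEZH2_005 sample 3 left out 0 of 5 passed, and with circEZH2_005 sample 1 left out Psme1 and Psmb10 again passed. The higher calls over all genes moved in the same way. They were 493 with all samples, 1098 without vector sample 2 and 553 without circEZH2_005 sample 1. Without vector sample 1, vector sample 3, circEZH2_005 sample 2 or circEZH2_005 sample 3 they were 26, 31, 62 and 136.

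**Figure D1:**
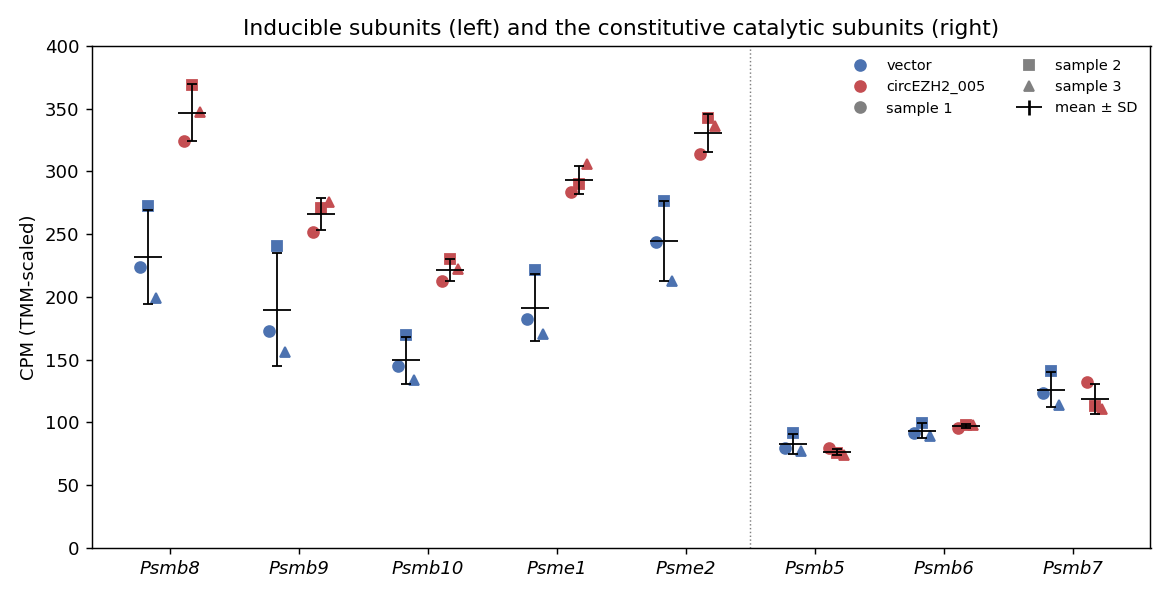
Level in CPM (TMM-scaled) of the 5 inducible subunits (left of the dotted line) and of the 3 constitutive catalytic subunits they replace (right). Blue marks are vector and red marks circEZH2_005 samples, marker shapes give the sample number, and black bars are mean ± SD (n = 3). The red marks lie above the blue ones for all 5 inducible subunits, while the groups overlap for Psmb5, Psmb6 and Psmb7.

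None of the 31 constitutive subunits passed the threshold in either direction, by edgeR, DESeq2 or limma, and over all genes 0.986% were lower. Their median log2 fold change was 0.04, a sign that turned under upper-quartile scaling, in both limma fits and without circEZH2_005 sample 1. In these settings it was -0.006, -0.052, -0.054 and -0.008. The median over all genes tested in each of these fits was -0.043, -0.074, -0.094 and -0.009. It was lower than the constitutive median under upper-quartile scaling and in both limma fits. Without circEZH2_005 sample 1 the medians were about equal, with -0.008 over the genes of the main test. By edgeR 20 of the 31 values were above 0 and 11 below, from -0.16 for Psma3 in the alpha ring to 0.26 for Psmc5, a 19S ATPase. By edgeR 3 of the 31 had an unadjusted p under 0.05, all higher (Psmc4, Psmc5 and Psmd4), against 2562 higher and 1784 lower of all 18348 genes tested. Without overlap between the groups 4 were higher (these 3 and Psmd11), against the 16.4% over all genes. None was lower without overlap, against 14.2% over all genes.

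Within the core, the 7 alpha-ring genes had a median difference of 0.01 and the 7 beta-ring genes one of -0.04. Psma1 was the highest alpha gene, with a difference of 0.19 ± 0.11, and Psmb4, a structural beta subunit, the highest beta gene, with 0.14 ± 0.08. Psmb5 was at 79.4, 91.7 and 76.7 CPM in vector and 79.3, 75.2 and 74.2 CPM in circEZH2_005 cells, a difference of -0.12 ± 0.09 with an adjusted p of 0.494. Psmb6 was at 91.4, 99.7 and 88.8 CPM in vector and 95.3, 98.1 and 98.0 CPM in circEZH2_005 cells, and Psmb7 at 124, 141 and 113 CPM and at 132, 113 and 111 CPM. The groups overlapped for all 3 catalytic genes.

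In the cap, the 6 ATPases had a median difference of 0.11 and the 11 non-ATPase subunits one of 0.03. Psmc5 was at 95.0, 109.8 and 91.1 CPM in vector and 115, 123 and 117 CPM in circEZH2_005 cells, a difference of 0.26 ± 0.09 with an adjusted p of 0.141. Psmd4, the ubiquitin receptor of the cap, was at 87.3, 93.8 and 87.1 CPM in vector and 106, 103 and 100.5 CPM in circEZH2_005 cells, a difference of 0.21 ± 0.07 (adjusted p = 0.141). Psmd2, a scaffold of the cap with the highest CPM of the 31, differed by 0.01 ± 0.08. The lowest values were -0.09 for Psmc6 among the ATPases and -0.10 for Psmd6, a lid subunit, among the others. The differences in Psmc5 and Psmd4 were smaller than that of each of the 5 inducible subunits.

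Summed over the 31 genes, the constitutive subunits ran from 3839 to 4370 CPM in vector and from 4037 to 4336 CPM in circEZH2_005 samples, and the ranges overlapped. The inducible sum ran from 871 to 1180 CPM in vector and from 1386 to 1502 CPM in circEZH2_005 samples, without overlap. The 5 genes took 16.5% to 19.1% of all proteasome gene counts in vector samples and 21.9% to 24.2% in circEZH2_005 samples. The proteasome genes together took 0.540% to 0.640% and 0.579% to 0.660% of all counts, so their total overlapped between the groups.

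**Figure D2:**
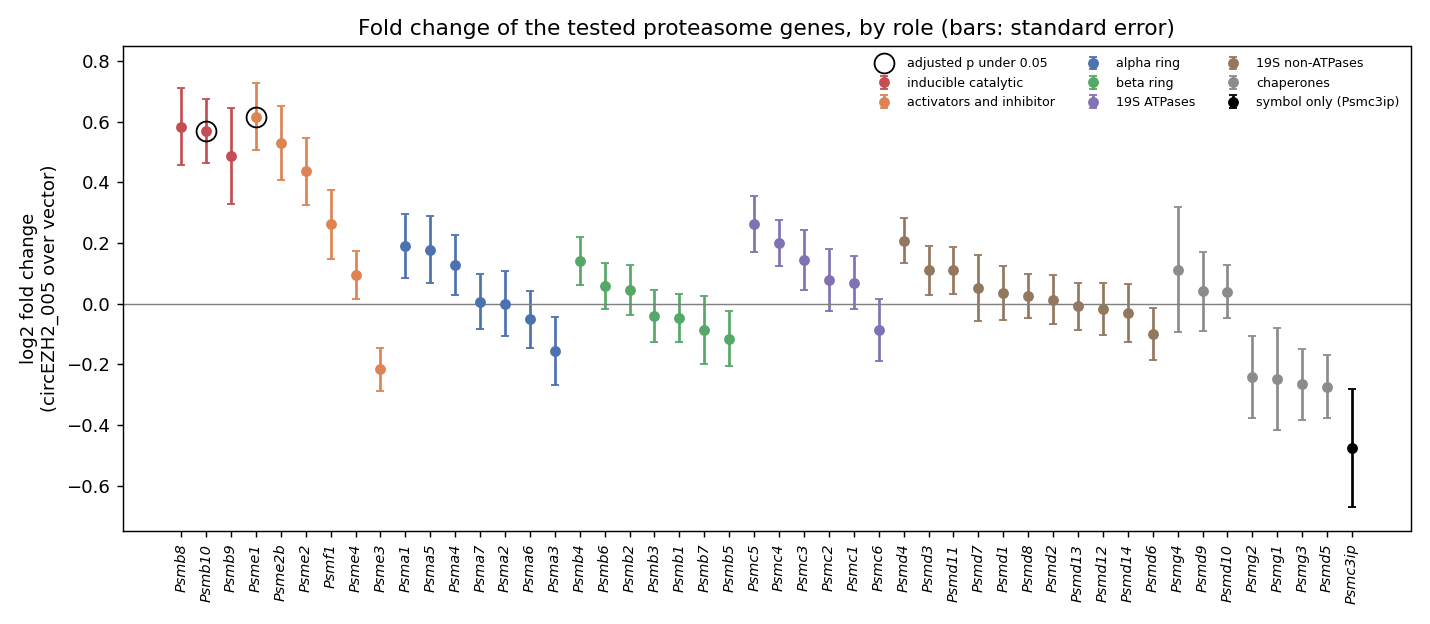
Log2 fold change (circEZH2_005 over vector, edgeR) of the 48 tested proteasome genes, grouped and coloured by role, with bars for the standard error. Open circles mark the 2 genes with an adjusted p under 0.05, Psmb10 and Psme1, and the constitutive rings and cap lie between -0.16 and 0.26.

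Because each inducible catalytic subunit takes the place of one constitutive subunit, the ratio of the 2 was formed within each sample, which removes differences in library scaling. The share of Psmb8 in the summed FPKM of Psmb8 and Psmb5 was 42.8%, 44.1% and 40.8% in vector and 52.1%, 56.6% and 55.5% in circEZH2_005 samples. The share of Psmb9 with Psmb6 was 49.1%, 55.2% and 47.4% in vector and 57.5%, 58.5% and 59.0% in circEZH2_005 samples. For Psmb10 with Psmb7 it was 70.1%, 70.7% and 70.2% in vector and 76.3%, 80.4% and 80.1% in circEZH2_005 samples. The groups did not overlap for any of the 3 pairs. Vector sample 2 stood near the other 2 vector samples for Psmb10 with Psmb7 and above them for Psmb9 with Psmb6.

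The ratio of inducible to constitutive subunit was 1.63-fold higher in circEZH2_005 cells for Psmb8 over Psmb5, 1.37-fold higher for Psmb9 over Psmb6 and 1.58-fold higher for Psmb10 over Psmb7. Each gave p = 0.1 in a 2-sided exact permutation test (n = 3 per group), the smallest p the design allows, and 0.1 after Benjamini-Hochberg adjustment over the 3 ratios. The size of the ratio within a group, unlike its difference between the groups, depends on the gene length used. The lengths implied by the deposited FPKM were 3720 to 3841 bases for Psmb8 and 3764 to 3886 for Psmb7, against principal transcripts of 1628 and 1160 bases in GENCODE M21. Counts per base of the principal transcript gave mean vector shares of 60.6% for Psmb8, 54.1% for Psmb9 and 51.1% for Psmb10, where the FPKM gave 42.6%, 50.6% and 70.3%. The order of the 3 pairs therefore turned with the length, and no order is given.

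**Figure D3:**
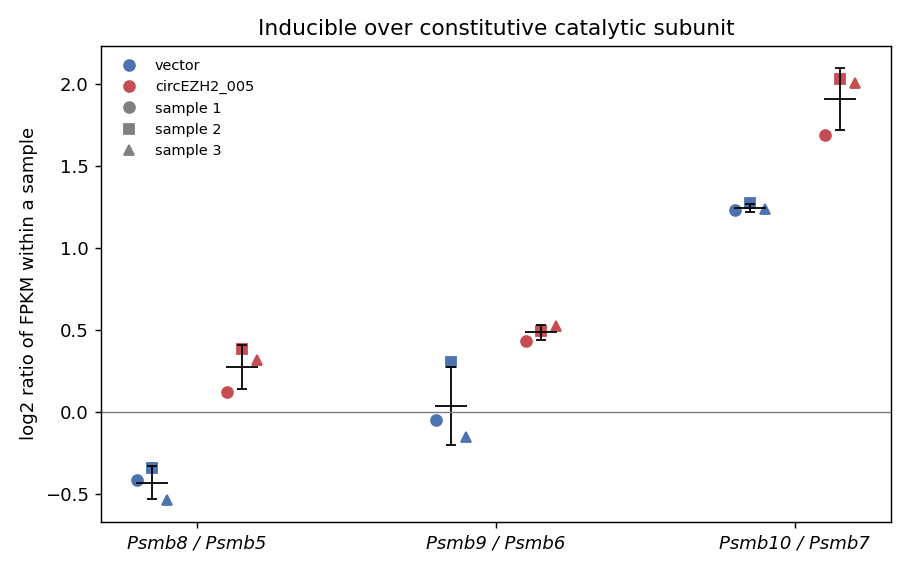
Log2 ratio of FPKM of each inducible catalytic subunit over the constitutive one it replaces, within each sample. Blue marks are vector and red marks circEZH2_005 samples, shapes give the sample number, and black bars are mean ± SD (n = 3). All 3 red marks lie above all 3 blue marks in each pair, while the height of a pair on the axis depends on the gene lengths behind the FPKM.

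Some of these genes share stretches of sequence with other genes, and how reads from such stretches were assigned was not examined. Of the 50-base windows of the principal transcript of Psme2, 59.3% also occur in transcripts of other genes, among them Psme2b, a close copy (chr11:48945354-48946190, minus strand). For Psme1 this was 14.1% and for Psmb5 57.1%, and for Psmb8, Psmb9, Psmb10 and Psmb7 it was 0%. Psmb10 lies wholly inside the antisense gene Gm16156, and Gm20496 covers 57.3% of Psmb8 on the other strand. Whether counting used the strand is not given in the sources used here, so reads of these genes and their antisense partners cannot be told apart if it did not.

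By edgeR none of the 12 other proteasome genes tested passed the threshold. At an unadjusted p under 0.05, 1 was higher and 3 lower, against 2562 higher and 1784 lower of all 18348 genes tested. Psme2b was at 72.2, 84.2 and 62.5 CPM in vector and 95.3, 111 and 110.0 CPM in circEZH2_005 cells, a difference of 0.53 ± 0.12 (adjusted p = 0.0578), without overlap and with the shared sequence given above. Psme2b passed with DESeq2, with a floor of 2 on the average FPKM and without vector sample 2. Psme3, which forms the nuclear PA28 gamma cap and is not known as an interferon target, was at 180.0, 187 and 183 CPM in vector and 156, 157 and 160.4 CPM in circEZH2_005 cells, a difference of -0.22 ± 0.07 (adjusted p = 0.121). The groups did not overlap for Psme3 either, and its sign was opposite to that of Psme1 and Psme2. Psme4, the PA200 cap, differed by 0.09 ± 0.08, and Psmf1, the inhibitor PI31, by 0.26 ± 0.11.

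Of the 7 assembly chaperones, 4 had negative values close to each other. These were Psmd5, which helps to build the base of the cap, at -0.27, and Psmg1, Psmg2 and Psmg3, which help to build the alpha ring, at -0.25, -0.24 and -0.27. Their adjusted p values ran from 0.165 for Psmd5 to 0.421 for Psmg1, and only Psmd5 and Psmg3, 2 of the 7 chaperones, were lower without overlap, against 14.2% over all genes. Psmd9, Psmd10 and Psmg4 differed by 0.04, 0.04 and 0.11. Psmc3ip differed by -0.47 ± 0.19 (adjusted p = 0.192) at 2.57 to 3.58 CPM in group means. Psma8 had 5 counts in vector sample 2 and 0 in the 5 other samples, and was not tested.

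Genes that work with the proteasome were read from 5 lists, with 46 genes in the table. By edgeR 4 of the 46 rose and 0 fell, against 2.69% higher and 0.986% lower over all genes tested. All 4 came from the lists for MHC class I peptide supply and for interferon signalling. With vector sample 2 left out 13 of the 46 rose, with circEZH2_005 sample 1 left out 3 did, and with any of the 4 other samples left out 0 did. Over all genes these fits called 1098, 553 and 26 to 136 higher. The 9 associated proteins, 5 control genes and 11 ubiquitin genes had 0 calls in either direction. At an unadjusted edgeR p under 0.05, 3 were higher and 4 lower, against 2562 higher and 1784 lower of all 18348 genes tested. In these 3 lists Nfe2l1, the factor that raises constitutive proteasome genes when the proteasome is short, differed by 0.05 ± 0.09, and Ddi2, the protease that activates it, by -0.31 ± 0.08 (adjusted p = 0.0680). Ubb, a polyubiquitin gene, differed by 0.36 ± 0.09 (adjusted p = 0.0728). DESeq2 called Ubb higher and Ddi2 lower, and limma called Ddi2 lower. Extremes of the 3 lists were Adrm1 and Uchl5, a ubiquitin receptor of the cap and the deubiquitinase bound to it, at 0.23 and -0.25, Bach1, a repressor of antioxidant genes, at 0.30, and the ubiquitin gene Rps27a at -0.35.

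In the class I list all 7 genes had positive values, with a median log2 fold change of 0.83, and 2 passed, against 2.69% higher over all genes. B2m, the light chain of MHC class I, was at 1075, 1454 and 973 CPM in vector and 1775, 2207 and 1999.7 CPM in circEZH2_005 cells. It rose by 0.77 ± 0.17 (edgeR, adjusted p = 0.0496, and past the threshold in only 3 of 14 alternatives). Tapbp, the tapasin that holds class I at the peptide transporter, rose by 0.87 ± 0.19 (adjusted p = 0.0492, in 7 of 14). Tap1 and Tap2, the 2 subunits of that transporter, differed by 0.85 (adjusted p = 0.0541) and 0.83 (adjusted p = 0.0612), and Nlrc5, the transactivator of class I genes, by 1.16 (adjusted p = 0.0699). Erap1, which trims peptides in the endoplasmic reticulum, had the lowest value, 0.11. Tap1 overlaps the start of Psmb9, head to head, by 212 bases on the other strand and ends 495 bases before Psmb8, with Tap2 another 2072 bases beyond Psmb8. The values of these 4 neighbours on chromosome 17 were 0.49 for Psmb9, 0.85 for Tap1, 0.58 for Psmb8 and 0.83 for Tap2.

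In the interferon list 13 of 14 genes had positive values, with a median of 0.46, and 2 passed, against 2.69% higher over all genes. Irf1, an interferon-gamma-induced factor that drives inducible proteasome genes, was at 179.6, 278 and 151 CPM in vector and 363, 494 and 445 CPM in circEZH2_005 cells. It rose by 1.10 ± 0.23 (edgeR, adjusted p = 0.0472, and past the threshold in 8 of 14 alternatives). Irf8, a factor best known from myeloid and B cells, rose by 1.06 ± 0.17 (adjusted p = 0.0286, in 9 of 14). Ifng, the cytokine itself, was at 0.19, 1.16 and 0.10 CPM in vector and 4.85, 3.99 and 1.10 CPM in circEZH2_005 cells (adjusted p = 0.122), and the highest vector sample overlapped the lowest circEZH2_005 sample. Its receptor genes Ifngr1 and Ifngr2 differed by -0.27 and 0.20 and did not pass.

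**Figure D4:**
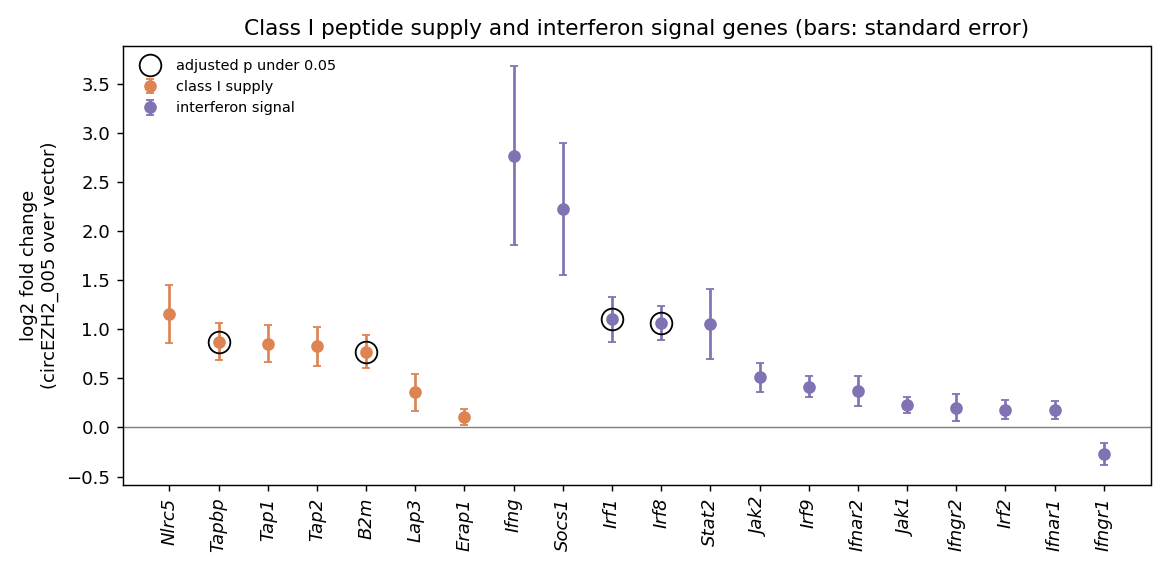
Log2 fold change (circEZH2_005 over vector, edgeR) with standard error of tested genes for MHC class I peptide supply (orange) and interferon signalling (purple). Open circles mark Tapbp, B2m, Irf1 and Irf8, the 4 with an adjusted p under 0.05, and Ifngr1 is the one gene below 0.

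Leukocytes hold the immunoproteasome constantly, so their markers were read in the same samples. All 17 leukocyte markers were detected in every sample and all 17 had positive values, with a median log2 fold change of 1.68. Of the 17 markers 10 were higher without overlap, against 16.4% over all genes tested. By the adjusted threshold 1 rose, the integrin Itgax, against 2.69% over all genes tested. The summed level of the 17 markers was 108, 304 and 132 CPM in vector and 700, 546 and 407 CPM in circEZH2_005 samples. Ptprc, the pan-leukocyte CD45, was at 22.8, 78.6 and 31.9 CPM in vector and 185, 140.3 and 103 CPM in circEZH2_005 samples, and the T cell gene Cd3e at 3.55, 16.5 and 4.41 CPM and at 37.6, 32.0 and 21.6 CPM. Vector sample 2 was the highest vector sample both for the marker sum and for the inducible sum. Its constitutive sum, 4370 CPM, was also the highest of the vector samples, so being highest was not particular to the inducible subunits. The share of the 5 inducible genes in all proteasome gene counts was highest there too, at 19.1%, against 17.8% and 16.5% in vector samples 1 and 3. Among the circEZH2_005 samples the orders of the marker and inducible sums differed, since sample 1 had the highest marker sum and, at 1386 CPM, the lowest inducible sum.

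Of the 3 endothelial genes Pecam1 rose by 1.93 on the log2 scale (adjusted p = 0.0377, and past the threshold in 4 of 11 alternatives). Cdh5 and Kdr were not tested, were at 0 in at least 1 sample each, and averaged 0.097 and 0.099 CPM in vector and 0.089 and 0.085 CPM in circEZH2_005 samples. The fibroblast markers summed to 4.82 to 7.90 CPM in vector and 2.34 to 11.1 CPM in circEZH2_005 samples, which overlapped. The part of leukocyte RNA in the higher inducible subunits was not tested. In bulk RNA, more cells of a type and more RNA per cell cannot be told apart.

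**Figure D5:**
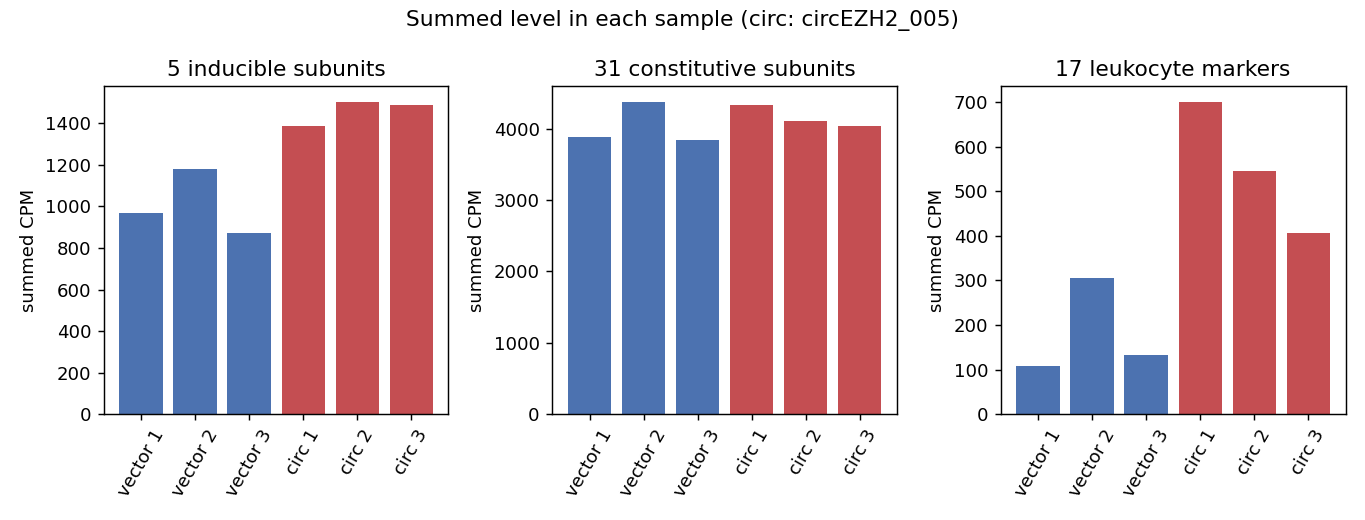
Summed CPM in each sample of the 5 inducible subunits, the 31 constitutive subunits and the 17 leukocyte markers, with vector samples in blue and circEZH2_005 samples in red. The inducible and marker sums do not overlap between the groups and the constitutive sums do, and circEZH2_005 sample 1 has the highest marker sum but the lowest inducible sum of its group.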

How the data were processed

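The authors deposited 1 table that gives each gene a read count and an FPKM value, scaled for library size and gene length, in each sample. The submitters' processing notes name cutadapt 1.9, HISAT2 2.0.4, StringTie 1.3.4d and DESeq2 and the build mm10, without roles. Columns headed NC were taken to be vector, as no other control exists. The labels and the study's methods differ on the time after infection, and the labels' value is given.

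Deposited counts were tested with edgeR 4.0.16 in R 4.3.3 (expression filter, TMM scaling, quasi-likelihood test, Benjamini-Hochberg adjustment over 18348 genes, threshold 0.05). Standard errors were derived from the F statistic. The 3 subunit ratios were formed from the deposited FPKM values and tested by exact permutation. Alternatives were RLE and upper-quartile scaling, no filter, a floor of 2 on the average FPKM, a replicate block, DESeq2 1.42.0, limma 3.58.1 on log2(FPKM + 1) and on log2(FPKM + 0.1) with a floor of 0.5, and each sample left out. Transcript lengths, gene overlaps and shared 50-base windows came from GENCODE M21 (GRCm38), where 42 of the 49 genes had exactly the table's position, and promoters from RefSeq. The code was tested on simulated data.

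Full values were fixed for the 5 inducible and 3 constitutive catalytic subunits, for genes past the threshold and for the highest and lowest gene of each role group and related list. Other genes were named after their values were seen. The members and lists were chosen with earlier results of these data known. Some genes of the related lists are counted there but their values are not reported here.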

Additional observations from a re-analysis of the deposited data

How the results depend on the processing

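The constitutive subunits had 0 calls in either direction, and the proteasome genes 0 lower calls, under all 14 alternatives. The 5 inducible subunits had higher values in circEZH2_005 cells throughout, with a median log2 fold change of 0.48 to 0.69, and the gap to the constitutive median stayed between 0.47 and 0.61. How many of the 5 passed depended on the setting. It was 2 under RLE and upper-quartile scaling and limma on log2(FPKM + 1), 3 with the floor of 2 FPKM, 5 with DESeq2, and 0 without a filter, with the replicate block and with limma on log2(FPKM + 0.1). It ran from 0 to 5 with a sample left out, and no inducible gene passed in all 6 of those fits. Over all proteasome genes the higher calls were 4 with the FPKM floor, 6 with DESeq2, 0 without a filter, with the block and with log2(FPKM + 0.1), and 0 to 6 with a sample left out. The related genes had 2 higher calls under RLE scaling and log2(FPKM + 0.1), 0 without a filter, 10 with DESeq2 and 0 to 13 with a sample left out, and 1 lower call, Ddi2, with DESeq2 and both limma fits.

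Over all genes the 493 higher and 181 lower calls became 132 and 37 without a filter, 1588 and 701 with DESeq2, 323 higher and 319 lower with log2(FPKM + 0.1) and 364 lower with log2(FPKM + 1), and 26 to 1098 higher and 2 to 334 lower with a sample left out, the highest counts being those without vector sample 2. The cause of these differences was not tested. Samples with the same number did not deviate together (correlations of -0.14, -0.02 and 0.04), so they were not paired in the main test. Whether they share an origin cannot be told from this, since other spread can hide a small shared effect. With the replicate block 241 genes were higher and 36 lower, 0 proteasome genes passed, 6 related genes did, and the 3 subunit ratios kept their direction (exact permutation p = 0.25, the smallest 3 pairs allow). With principal transcript lengths, an alternative added after seeing the data, the ratio differences were 0.71, 0.45 and 0.66 on the log2 scale, as with FPKM. Every sample held at least 71506487 counts, and apart from Psma8 the proteasome genes had at least 190 counts in each sample.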
